A study of Canis lupus familiaris with 12 samples.

Results

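MDCKII cells lacking cingulin (CGN-KO) were compared by RNASeq with MDCKII cells lacking paracingulin (CGNL1-KO), with 3 libraries of each line, so 6 of the 12 libraries of the series entered the comparison. The libraries were chosen by genotype and paired by replicate number, and 12650 of the 13672 genes listed were tested, those above 1 CPM (counts per 1000000 reads) in at least 3 of the 12 libraries. MDCKII is an epithelial cell line from dog kidney. The CGN-KO cells are line 1G8, in which the gene of cingulin (CGN) was targeted, and the CGNL1-KO cells are line 22, in which the gene of paracingulin (CGNL1) was targeted. Both were made by CRISPR/Cas9 gene editing, were untreated, and keep the gene that the other line lacks. WT cells and a CGN/CGNL1 double-KO line (21D3), with 3 libraries each, were used only to place the difference between the single-KO lines. Each KO genotype is represented by 1 clonal line, so an effect of the missing protein and a difference between clones cannot be told apart. Neither the labels nor the methods say that the 3 libraries of a line come from separate cultures, so the p-values measure the spread between these libraries only.

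Cingulin and paracingulin are related coiled-coil proteins on the cytoplasmic side of epithelial junctions. Cingulin sits at tight junctions, the seal around the apex of each cell, and paracingulin sits at tight junctions and at adherens junctions, which hold neighbouring cells together through cadherins. Both bind the scaffold ZO-1 and nonmuscle myosin-2, and both are known to bind guanine nucleotide exchange factors, which switch on small GTPases of the cytoskeleton. In kidney tubules tight junctions set which ions and how much water pass between cells, and the claudins line these paths.

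The deposited CPM were whole multiples of the worth of 1 read, and the recovered totals ranged from 16875183 to 30086076 reads for CGN-KO and from 17374607 to 22493492 reads for CGNL1-KO libraries. All 15 epithelial markers on a fixed list, such as CDH1, EPCAM, KRT8 and PAX8, were detected in each of the 6 libraries, with a summed level of 8364 to 8497 CPM in CGN-KO and 8446 to 8764 CPM in CGNL1-KO cells. The lowest of them was CDH16, a kidney cadherin, at 1.49 to 5.14 CPM. Among markers of other cell types, PDGFRA of fibroblasts was at 5.88 to 11.1 CPM in CGN-KO and 3.75 to 9.81 CPM in CGNL1-KO cells, a difference of 0.40 on the log2 scale. KDR, the receptor for VEGF on endothelium, was at 0.758 to 0.938 CPM and 1.92 to 2.41 CPM, a difference of -0.81, and their part in the results was not tested.

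The targeted genes went with the labels. The CGN level was 56.5, 48.3, and 47.0 CPM in CGN-KO replicates 1, 2, and 3 and 213, 202, and 198 CPM in CGNL1-KO replicates 1, 2, and 3. Every CGN-KO library lay far below every CGNL1-KO library, and CGN mRNA was still detected in CGN-KO cells. The difference was -1.99 ± 0.05 on the log2(CPM + 1) scale (SE, limma, adjusted p = 5.32e-20), and the mean CPM was 4.03-fold higher in CGNL1-KO cells. The CGNL1 level was 6.92, 5.04, and 6.02 CPM in the CGN-KO and 3.02, 1.76, and 2.25 CPM in the CGNL1-KO libraries. Here the groups did not overlap either, with a difference of 1.07 ± 0.12 (limma, adjusted p = 3.12e-07) and a mean CPM 2.56-fold higher in CGN-KO cells. In WT cells CGN was at 199 to 233 CPM and CGNL1 at 7.74 to 12.3 CPM, so the CGNL1 level of CGN-KO cells lay below the WT range.

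83 genes were called between the lines, at an adjusted p below 0.05 (limma with the replicate number as a block, Benjamini-Hochberg) and a difference of at least 2-fold. They were 0.656% of the genes tested. 55 genes (0.435%) were higher and 28 genes (0.221%) were lower in CGN-KO than in CGNL1-KO cells. The 3 values of one line lay apart from the 3 values of the other for 82 of the 83, and the exception was CLDN2. Among all genes tested the lines did not overlap for 2453 genes (19.4%). Called genes had low levels, with a median of 5.58 CPM over the 6 libraries beside 31.7 CPM for all genes tested. 54 of them were under 10 CPM and 6 were at 100 CPM or more, so many rest on few reads.

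Small differences were far more frequent. 1955 genes (15.5%) passed the adjusted p at any fold, 1062 (8.4%) higher and 893 (7.06%) lower in CGN-KO cells, and 1700 of them were less than 1.5-fold apart. Without the replicate block 327 of the 12650 genes passed, 206 higher and 121 lower. Counts without the block in the gene lists below are to be read beside this number. The balance between directions also depended on the scaling. With library totals in place of TMM, the scaling by edgeR that the deposited CPM carry, 1564 genes were higher and 502 lower, so the share of higher genes was 75.7% in place of 54.3%. This scaling moved the median difference of all genes from -0.0038 to 0.0387, and no gene that is given below as past the adjusted p in a gene list changed its sign with it. The gene lists below were chosen with earlier results of these data known. In nearly all of them the share past the adjusted p was above the 15.5% of all genes, so a share above it is not particular to 1 list.

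**Figure D1:**
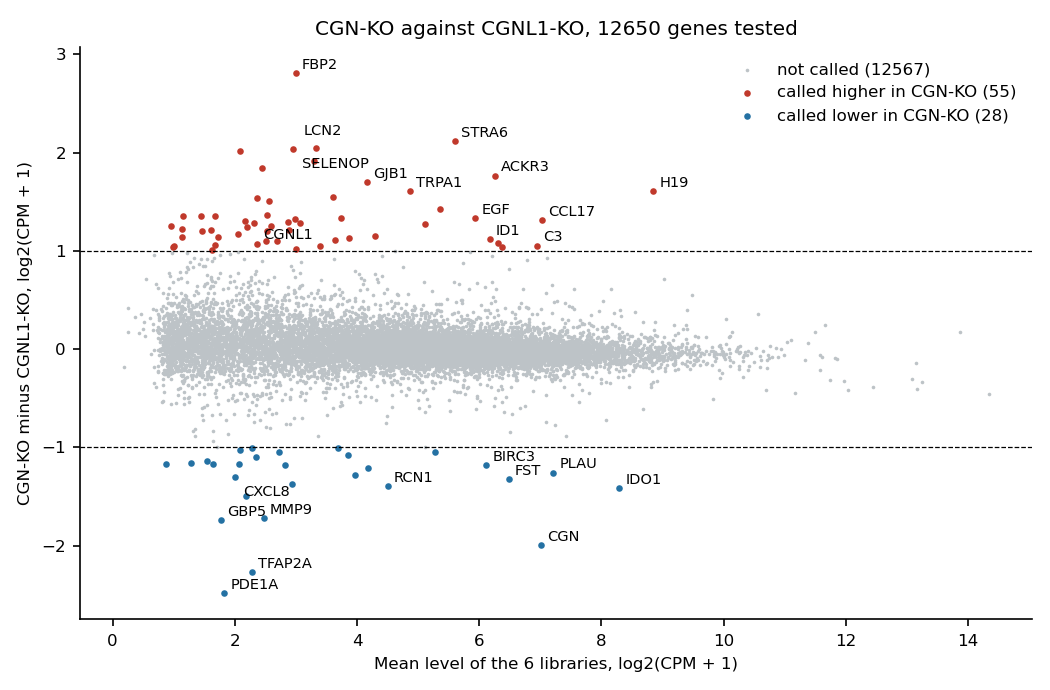
Difference between the lines (CGN-KO minus CGNL1-KO, log2(CPM + 1), vertical axis) against the mean level of the 6 libraries (log2(CPM + 1), horizontal axis) for the 12650 genes tested. The 55 genes called higher (red) and 28 called lower (blue) in CGN-KO cells lie beyond the dashed lines at a 2-fold difference, and most are on the left, at low levels.

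The genes furthest apart were picked among called genes without overlap between the lines, so their separation was set by the choice. The 12 of them furthest above in CGN-KO cells were, in order, FBP2, STRA6, LCN2, SELENOP, LOC486353, SDSL, MAF, ACKR3, GJB1, H19, TRPA1 and FYN. FBP2, the muscle form of the gluconeogenic enzyme fructose-1,6-bisphosphatase, was at 15.0, 11.6, and 12.3 CPM in CGN-KO replicates 1, 2, and 3 and at 0.929, 0.858, and 1.18 CPM in the CGNL1-KO replicates. It was well detected in each CGN-KO library and near 1 CPM in each CGNL1-KO library. The difference was 2.81 ± 0.12 (SE, limma, adjusted p = 8.62e-15).

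The 12 genes furthest below in CGN-KO cells, picked in the same way, were PDE1A, TFAP2A, CGN, GBP5, MMP9, NXPH2, IDO1, RCN1, LOC102155886, FST, CXCL8 and LOC490169. The last carries the RefSeq gene ID of GBP6. PDE1A, a phosphodiesterase that calcium and calmodulin activate, was at 0.198, 0.0494, and 0 CPM in the CGN-KO libraries, or 6, 1, and 0 reads. In CGNL1-KO cells it was at 4.88, 5.24, and 4.98 CPM. PDE1A was close to undetected in one line and low but steady in the other, at -2.48 ± 0.14 (limma, adjusted p = 1.9e-12). TFAP2A, the transcription factor AP-2 alpha, was at 0.956, 0.593, and 0.472 CPM in CGN-KO and 8.42, 6.36, and 6.37 CPM in CGNL1-KO cells. Its groups were as far apart, at -2.27 ± 0.13 (limma, adjusted p = 1.48e-12), and TFAP2A was the only called gene of the 40 kidney and epithelial transcription factors tested.

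**Figure D2:**
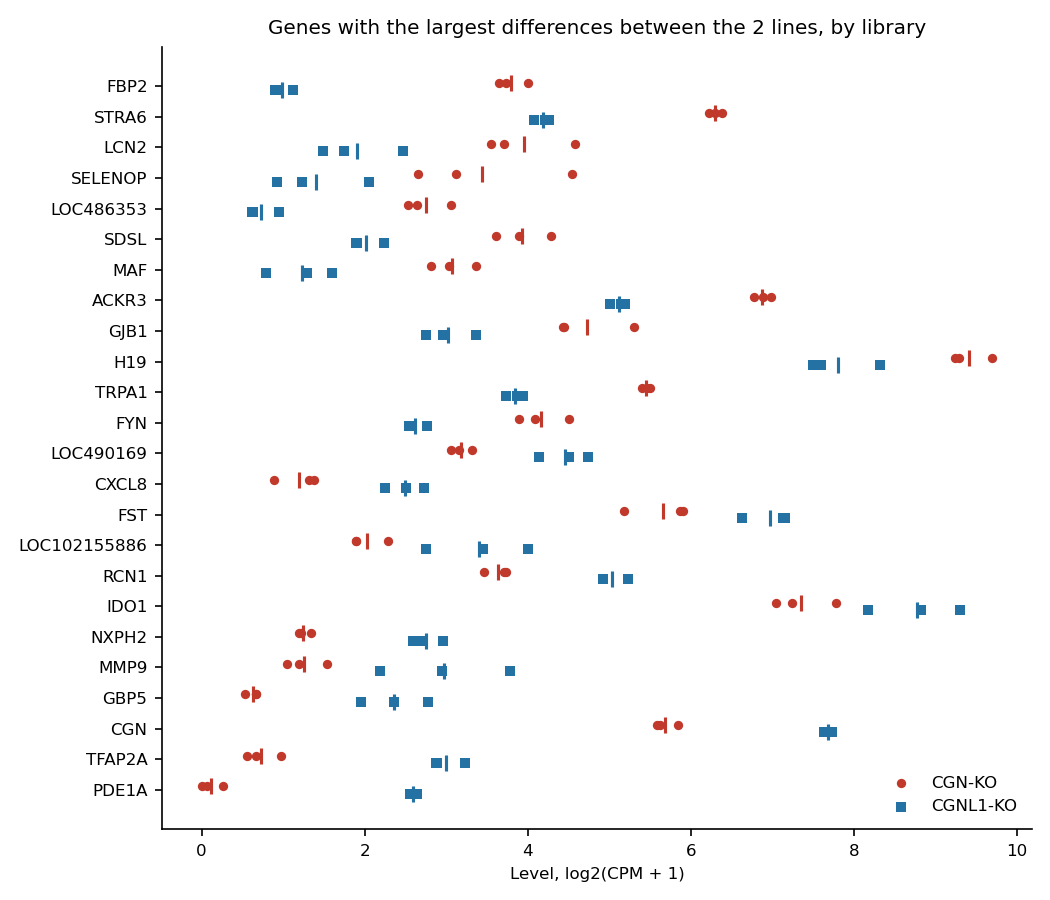
Level of each gene in each library (log2(CPM + 1), horizontal axis) for the 12 genes with the largest differences in each direction. Circles are the 3 CGN-KO libraries, squares are the 3 CGNL1-KO libraries, and bars are the means of 3. Only called genes without overlap could be picked, so circles and squares are apart by the choice of genes.

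On the lists of tight and adherens junction genes, CLDN2 was the only called gene besides the targets, but smaller differences were frequent. Of 29 tested genes for proteins that the study works on, CGN and CGNL1 were called and 6 others passed the adjusted p, each less than 1.5-fold apart. With the targets they were 27.6% of the list, beside 15.5% of all genes. CAMSAP3, which binds microtubule minus ends, was 0.37 ± 0.07 higher in CGN-KO cells (log2, limma, adjusted p = 0.000425), at 23.7 to 29.7 CPM beside 19.5 to 21.9 CPM. MYH14 (0.22), the heavy chain of nonmuscle myosin-2C, and PLEKHA5 (0.18) were also higher, but for both the libraries of the lines overlapped. AFDN (-0.13), LMO7 (-0.18) and CDH1 (-0.18), which encode afadin, a LIM domain protein and E-cadherin, were lower. TJP1, which encodes ZO-1, was at 128 to 145 CPM in CGN-KO and 131 to 141 CPM in CGNL1-KO cells, with a difference of -0.004 ± 0.042. MYH9 (-0.11 ± 0.05) and MYH10 (0.02 ± 0.05), the heavy chains of nonmuscle myosin-2A and -2B, and OCLN (-0.04 ± 0.05), which encodes occludin, did not pass the test. The median of the 29 genes was -0.004, the same as for all genes (-0.004).

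Of the 8 claudins tested, 4 passed the adjusted p (50%, beside 15.5% of all genes), and all 4 were higher in CGN-KO cells. CLDN2, which forms cation and water pores, was at 43.1, 15.6, and 20.6 CPM in CGN-KO replicates 1, 2, and 3 and at 16.8, 7.63, and 8.35 CPM in CGNL1-KO replicates 1, 2, and 3. Replicate 1 was the highest of both lines, and the CGNL1-KO replicate 1 exceeded the CGN-KO replicate 2, so the lines overlapped while each pair differed in the same direction. The paired difference was 1.15 ± 0.08 (limma, adjusted p = 2.67e-10), and without the replicate block the adjusted p was 0.145, so the call rests on the pairing, and 1 of the 8 claudins passed without it. CLDN4, at 285 to 306 CPM in CGN-KO and 240 to 264 CPM in CGNL1-KO cells, differed by 0.23 ± 0.04 (limma, adjusted p = 0.000246). None of 33 other tight junction and polarity genes was called. 3 were higher and 3 lower at the adjusted p, among them MAGI1 (0.41), CRB3 (0.29) and SCRIB (0.22), a scaffold and members of the Crumbs and Scribble polarity modules, and none passed without the block. Of 25 adherens junction and desmosome genes none was called and 4 passed in each direction (32%, beside 15.5% of all genes), and 1 lower without the block. CDH3, which encodes P-cadherin, was at 63.1 to 66.2 CPM in CGN-KO and 99.0 to 106 CPM in CGNL1-KO cells (-0.64 ± 0.05, limma, adjusted p = 2.09e-10). EVPL, for the desmosomal protein envoplakin, differed in the other direction (0.57 ± 0.10).

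Few genes of the actomyosin cortex were called either. Of 27 genes of nonmuscle myosin-2 and its regulators none was called and 3 passed in each direction, beside 1 lower without the block. ROCK2, a kinase that raises myosin-2 activity, was at 74.0 to 81.0 CPM in CGN-KO and 94.1 to 110 CPM in CGNL1-KO cells, a difference of -0.38 ± 0.05 (limma, adjusted p = 1.15e-06). RHOB was higher in CGN-KO cells (0.36) and RND3, an atypical small GTPase, was lower (-0.22). Of 32 actin filament genes and targets of SRF, the factor that responds to free actin, 1 was called, and 3 were higher and 6 lower, beside 3 higher and none lower without the block. The called gene was BASP1, a membrane-bound protein of the actin cortex, at 5.57, 7.75, and 6.61 CPM in CGN-KO and 1.10, 2.12, and 1.71 CPM in CGNL1-KO cells. No library of one line came near those of the other (1.54 ± 0.12). None of 18 YAP and TEAD targets was called, and 7 were lower and 2 higher at the adjusted p (50%, beside 15.5% of all genes). CYR61 (-0.25) and ANKRD1 (-0.25) were among the lower. None of the 18 passed in either direction without the replicate block, so these counts rest on the pairing. The count over all 12650 genes also fell, from 1955 to 327, so the loss is not particular to this list.

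TGF-beta and BMP genes were one of the groups in which more than 1 gene in 2 passed the test. Signals of this family act through SMAD proteins, with the ID genes as classical BMP targets, and they are damped by pseudoreceptors and secreted antagonists. Of 29 genes tested, 4 were called higher and 1 lower in CGN-KO cells, and 13 were higher and 3 lower at any fold (55.2% beside 15.5% of all genes). Their median was 0.15 beside -0.004 for all genes, and it was 0.08, 0.12 and 0.21 in the 3 pairs. Without the replicate block 5 were higher and 3 lower at any fold, and again 4 were called higher and 1 lower. As the lists were chosen with earlier results of these data known, these shares are a description only.

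BAMBI, a pseudoreceptor that blocks TGF-beta and BMP receptors, was at 5.61, 5.23, and 5.31 CPM in CGN-KO and 1.68, 1.31, and 1.77 CPM in CGNL1-KO replicates 1, 2, and 3. Every CGN-KO library was well above every CGNL1-KO library, with a mean CPM 3.40-fold higher and a difference of 1.31 ± 0.12 (limma, adjusted p = 2.83e-08). ID1, an inhibitor of bHLH transcription factors, was at 95.2, 100, and 95.4 CPM in CGN-KO and 61.4, 36.5, and 38.0 CPM in CGNL1-KO cells, and its relative ID3 was at 16, 16.2, and 15.5 CPM and 9.11, 5.78, and 5.99 CPM. For both, CGN-KO libraries were alike and above all CGNL1-KO libraries, of which replicate 1 was the highest. The differences were 1.12 ± 0.09 for ID1 and 1.11 ± 0.10 for ID3, and without replicate 2 they fell just under 2-fold (0.97 and 0.99). FST encodes follistatin, a secreted protein that binds activin, and was at 35.4, 57.5, and 59.0 CPM in CGN-KO and 98.3, 142, and 139 CPM in CGNL1-KO cells. Replicate 1 was the lowest of each line, and the lines did not overlap (-1.32 ± 0.05, limma, adjusted p = 7.68e-16). TGFBI, a matrix protein that TGF-beta induces, was chosen after its values were seen. It was at 109 to 113 CPM in CGN-KO and 47.6 to 58.3 CPM in CGNL1-KO cells (1.04 ± 0.05), and without replicate 1 it was at 0.94.

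Wnt genes leaned the same way. Of 23 genes tested 2 were called, both higher in CGN-KO cells. At any fold 10 were higher and 2 lower (52.2%, beside 15.5% of all genes), with a median of 0.21. At any fold 3 were higher and none lower without the replicate block. DKK3, a secreted protein of the dickkopf family, was at 23.9, 15.0, and 15.8 CPM in CGN-KO and 7.55, 5.01, and 7.17 CPM in CGNL1-KO cells, a difference of 1.33 ± 0.10 without overlap. LGR6, a receptor for R-spondins, was at 2.77 to 3.99 CPM and 0.929 to 1.18 CPM (1.14 ± 0.14). Of the EGF receptor family, its ligands and FGF genes, 1 of 26 was called, and without the block 4 were higher and 1 lower at any fold. The called gene was the ligand EGF, which kidney distal tubules make in abundance, at 101, 71.5, and 86.2 CPM in CGN-KO and 41.7, 26.8, and 32.8 CPM in CGNL1-KO cells. Within each pair EGF was higher in CGN-KO cells by a similar factor, and the lines stayed apart (1.34 ± 0.05, limma, adjusted p = 1.34e-15). None of 13 Notch pathway genes was called, and 3 were higher at any fold, NRARP (0.48), NOTCH3 (0.38) and LFNG (0.38), and none without the block.

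Genes of inflammation were divided. Among 25 NF-kappa-B and inflammation targets 2 were called higher and 2 lower, while 3 were higher and 10 lower at any fold (52.0%), with a median of -0.15 that had the same sign in each pair. Without the replicate block 2 were higher and 6 lower. LCN2, a lipocalin that binds bacterial siderophores, was at 23.0, 10.8, and 12.1 CPM in CGN-KO and 4.53, 1.80, and 2.35 CPM in CGNL1-KO replicates 1, 2, and 3. C3, the central protein of the complement cascade, was at 186, 156, and 153 CPM in CGN-KO and 99.5, 65.4, and 75.3 CPM in CGNL1-KO cells. Replicate 1 was the highest of each line for both genes, and neither overlapped. The differences were 2.05 ± 0.10 for LCN2 and 1.05 ± 0.05 for C3, and C3 was at 0.96, under 2-fold, without replicate 2.

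The genes called lower in CGN-KO cells included BIRC3, an inhibitor of cell death that NF-kappa-B induces. Its level was 36.2, 42.5, and 45.6 CPM in CGN-KO and 98.7, 87.4, and 98.0 CPM in CGNL1-KO cells, with each CGN-KO library far below each CGNL1-KO library (-1.18 ± 0.06, limma, adjusted p = 2.88e-13). MMP9, a gelatinase that is also counted among the proteases, was at 1.91, 1.28, and 1.06 CPM in CGN-KO and at 12.8, 3.57, and 6.74 CPM in CGNL1-KO cells. The CGNL1-KO libraries varied several-fold among themselves but all exceeded the CGN-KO libraries (-1.72 ± 0.16, limma, adjusted p = 2.62e-08).

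Among 25 cytokines, chemokines and their receptors 1 was called higher and 2 lower, and 4 were higher and 8 lower at any fold, beside 3 and 5 without the block. ACKR3, an atypical receptor that takes up the chemokine CXCL12, was at 108, 126, and 117 CPM in CGN-KO and 35.7, 31.1, and 34.2 CPM in CGNL1-KO cells. It was the most abundant gene of the list among those called and lay well apart in the 2 lines, 3.47-fold in mean CPM (1.77 ± 0.06, limma, adjusted p = 7.37e-17). CXCL8, which attracts neutrophils, was at 0.857, 1.48, and 1.59 CPM in CGN-KO and 4.70, 3.75, and 5.62 CPM in CGNL1-KO cells, and CCL20, which attracts cells with the receptor CCR6, was at 10.2, 9.53, and 9.62 CPM and 31.3, 17.5, and 24.7 CPM. Both were lower in each CGN-KO library than in any CGNL1-KO library. The differences were -1.30 ± 0.14 and -1.21 ± 0.10. CCL17, a chemokine outside the list and 1 of the 5 most abundant called genes, went the other way, at 176, 191, and 190 CPM in CGN-KO and 77.4, 73.7, and 71.8 CPM in CGNL1-KO cells (1.31 ± 0.05).

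Of 39 genes of the interferon response and antigen presentation, 1 was called, 3 were higher and 9 lower at any fold, and without the replicate block 1 was higher and 7 lower. The called gene was GBP5, an interferon-induced GTPase, at 0.594, 0.444, and 0.591 CPM in CGN-KO and 5.86, 2.89, and 4.12 CPM in CGNL1-KO cells. It was barely detected in each CGN-KO library (-1.74 ± 0.15, limma, adjusted p = 3.65e-09). LOC490169 (GBP6), of the same family and outside the list, was at 8.97, 7.95, and 7.32 CPM and 25.7, 16.6, and 21.8 CPM (-1.28 ± 0.09). These GTPases have close relatives in the genome, so how reads were divided among them is uncertain. IDO1, an interferon-induced enzyme that breaks down tryptophan, was the most abundant gene called lower. Its level was 218, 131, and 151 CPM in CGN-KO and 634, 288, and 453 CPM in CGNL1-KO replicates 1, 2, and 3. Replicate 1 was the highest and replicate 2 the lowest of each line, so the pairs differed by a more even factor than the libraries did (-1.42 ± 0.06, limma, adjusted p = 4.21e-15).

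**Figure D3:**
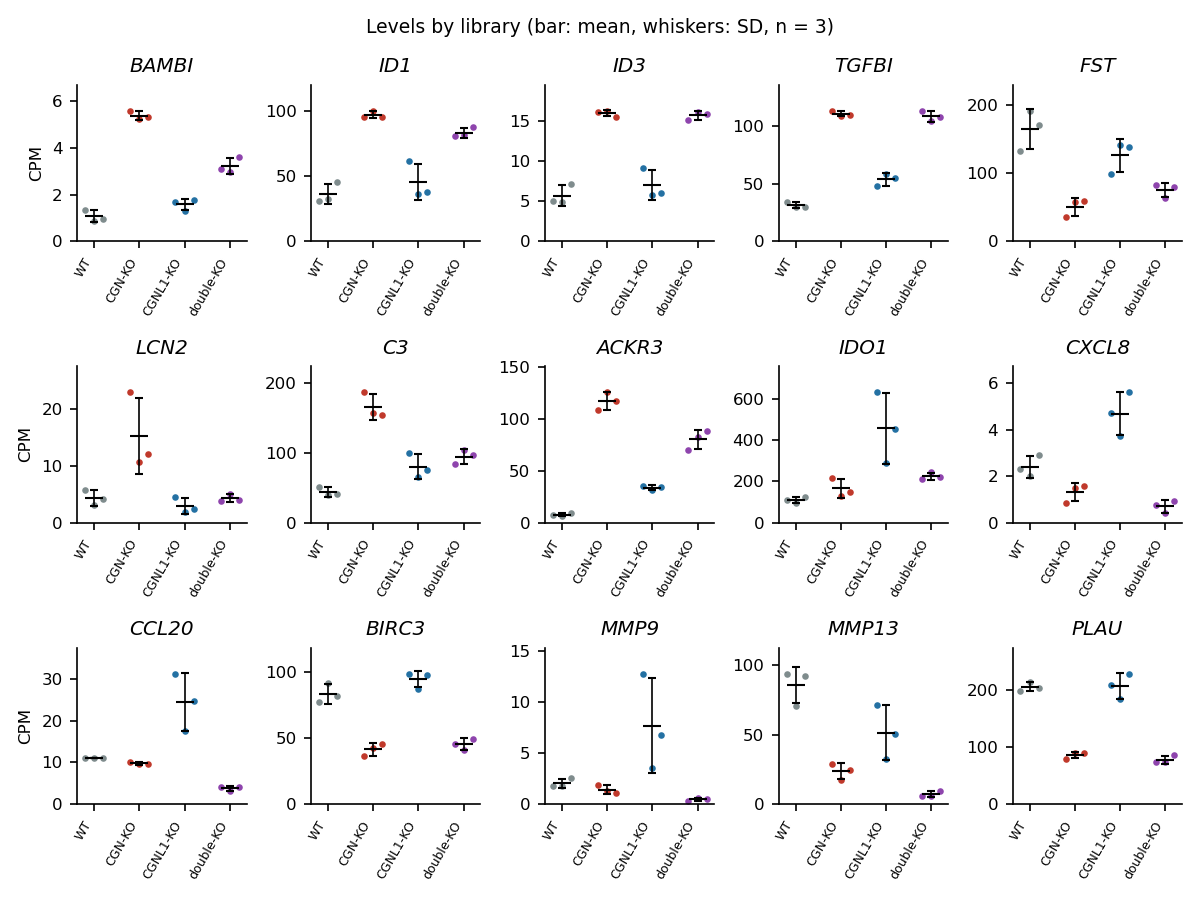
CPM of 15 genes named for TGF-beta and BMP signals, inflammation and proteases in each of 12 libraries, by genotype (points, 3 libraries each, with bars for the mean and whiskers for the SD). CGN-KO libraries (red) are above CGNL1-KO libraries (blue) for BAMBI, ID1, ID3, TGFBI, LCN2, C3 and ACKR3 and below them for the other 8 genes.

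Proteases and their inhibitors had 3 called members of 37, all lower in CGN-KO cells, with 5 higher and 12 lower at any fold. In the fit without the replicate block none was higher and 4 were lower at any fold, and 2 were called. Besides MMP9 these were PLAU and MMP13. PLAU encodes urokinase, which activates plasminogen, and was at 79.3, 90.2, and 88.9 CPM in CGN-KO and 210, 184, and 229 CPM in CGNL1-KO cells. The lines were far apart (-1.26 ± 0.05, limma, adjusted p = 9.48e-15). MMP13, a collagenase, was at 29.1, 17.6, and 24.5 CPM in CGN-KO and 71.5, 32.5, and 50.3 CPM in CGNL1-KO cells. Its lines came close, with the lowest CGNL1-KO value near the highest CGN-KO value. The difference was -1.04 ± 0.07, with an adjusted p of 0.0677 in limma without the replicate block and a difference of -0.93 without replicate 1.

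Matrix and adhesion genes had no called members, and their differences at any fold went in opposite directions. Of 30 collagens, laminins and other matrix genes 9 were higher and 5 lower in CGN-KO cells, beside 4 and none without the block. EFEMP1, for an elastic fibre protein, was at 25.2 to 29.7 CPM and 12.6 to 14.1 CPM (0.94 ± 0.08) and was called with edgeR. VCAN, for the proteoglycan versican, was at 155 to 170 CPM and 101 to 117 CPM (0.57 ± 0.04). Of 14 integrins 2 were higher and 6 lower (57.1%, beside 15.5% of all genes). The lower included ITGA5 (-0.48), ITGA3 (-0.36) and ITGA6 (-0.31), which encode the alpha subunits of receptors for fibronectin and laminins. Without the replicate block 1 integrin passed the test. Of 22 S100 and annexin genes 5 passed in each direction, beside 1 lower without the block. S100A14 was lower (-0.77 ± 0.05) at 91.5 to 138 CPM beside 162 to 212 CPM. S100A16 was higher by 0.78 ± 0.19, although its CGN-KO replicate 2 (0.395 CPM) was just above the highest CGNL1-KO library (0.374 CPM). Both lines held little S100A16, with means of 1.44 CPM in CGN-KO and 0.342 CPM in CGNL1-KO cells beside 32.9 CPM in WT cells. This difference therefore lies near the limit of detection, with 8 reads in replicate 2 of each line.

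Retinoid and detoxification genes had 1 called member of 33, with 11 higher and 1 lower in CGN-KO cells at any fold and a median of 0.13. STRA6, the membrane receptor that takes up retinol from its carrier in blood, was at 77.5, 82.8, and 73.6 CPM in CGN-KO and 18.2, 17.6, and 15.9 CPM in CGNL1-KO cells. Its libraries within a line were tightly grouped and the lines were 4.53-fold apart in mean CPM (2.12 ± 0.06, limma, adjusted p = 1.82e-18). Without the replicate block 3 genes of this list were higher and none lower.

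Among the transcription factors of kidney and epithelia, besides TFAP2A, 14 were higher and 3 lower in CGN-KO cells at any fold. Without the block 1 was higher and 2, TFAP2A included, were lower. Of the 15 epithelial markers none was called, and 4 were higher and 3 lower at any fold (46.7%). None of the 15 passed without the block. MAF, a basic leucine zipper transcription factor, was called outside this list. It was at 9.30, 6.02, and 7.20 CPM in CGN-KO and 2.03, 0.722, and 1.45 CPM in CGNL1-KO cells, with no overlap (1.85 ± 0.12). H19, an imprinted long noncoding RNA that fetal tissues express at high levels, was the most abundant of all called genes. It was at 832, 607, and 625 CPM in CGN-KO and 318, 179, and 193 CPM in CGNL1-KO cells. Replicate 1 was the highest of both lines, and each CGN-KO library was well above each CGNL1-KO library (1.61 ± 0.05, limma, adjusted p = 7.37e-17).

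Several called genes encode channels, carriers and other proteins of the membrane. GJB1 encodes connexin 32, a gap junction protein, and was at 38.5, 20.7, and 20.7 CPM in CGN-KO and 9.35, 5.73, and 6.79 CPM in CGNL1-KO cells (1.70 ± 0.09). TRPA1, a cation channel that senses irritants, was at 41.2, 44.1, and 43.2 CPM and 12.2, 14.3, and 13.6 CPM (1.61 ± 0.07). Both genes were higher in all CGN-KO libraries, and the replicates of TRPA1 were the more even. Of 34 ion channels, pumps and water channels 1 was called, with 7 higher and 8 lower at any fold, beside 2 and none without the block. The called gene was CLCN2, a chloride channel, at 16.9 to 23.1 CPM and 7.72 to 8.77 CPM (1.13 ± 0.09). Of 60 solute carriers 1 was called, with 8 higher and 9 lower at any fold, beside 3 and 1 without the block. The called gene was SLC27A6, a fatty acid transporter, at 2.90 to 4.74 CPM and 0.581 to 0.948 CPM (1.35 ± 0.14).

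The remaining genes among the furthest apart have other roles. SELENOP, a secreted selenium carrier, was at 22.3, 5.28, and 7.68 CPM in CGN-KO and 3.13, 0.903, and 1.34 CPM in CGNL1-KO replicates 1, 2, and 3. Replicate 1 was several-fold above the other replicates in both lines, and the lines did not overlap (2.04 ± 0.13). SDSL, a relative of serine dehydratase, was at 11.2 to 18.4 CPM and 2.73 to 3.71 CPM (1.92 ± 0.11), and FYN, a kinase of the Src family, was at 13.9 to 21.7 CPM and 4.82 to 5.80 CPM (1.55 ± 0.10). LOC486353, whose role the table does not give, was at 4.79 to 7.35 CPM and 0.535 to 0.929 CPM (2.02 ± 0.13). Lower in CGN-KO cells were RCN1, a calcium-binding protein of the endoplasmic reticulum, at 10.1 to 12.3 CPM beside 29.4 to 36.5 CPM (-1.39 ± 0.08), and NXPH2, a neurexophilin, at 1.28 to 1.53 CPM beside 5.03 to 6.77 CPM (-1.50 ± 0.13). LOC102155886 was at 2.72 to 3.89 CPM and 5.73 to 15.0 CPM (-1.37 ± 0.13).

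Lists on growth and metabolism held few called genes. Of 64 cell cycle and mitosis genes 1 was called, and 3 were higher and 7 lower at any fold, beside 1 higher without the block. The share of these genes past the adjusted p was 15.6%, beside 15.5% of all genes. The called gene was CDKN2B, an inhibitor of cyclin-dependent kinases, at 9.69, 9.43, and 9.62 CPM in CGN-KO and 6.50, 3.38, and 3.32 CPM in CGNL1-KO cells (1.02 ± 0.13). The CGNL1-KO replicate 1 was well above the others, and the difference was 0.91 without replicate 2 and 0.88 without replicate 3. None of 25 p53 and apoptosis genes was called, nor of 52 genes of the primary cilium, 38 of cholesterol and fatty acid synthesis, 45 of glycolysis and hypoxia, 40 immediate early and stress genes, 40 ephrins, semaphorins and guidance receptors, or 17 keratins and regulators of epithelial-mesenchymal transition. At any fold, 12 immediate early and stress genes were higher and 5 lower (42.5%, beside 15.5% of all genes), and 1 passed without the replicate block. JUNB (0.61) and IER2 (0.53) were the largest without overlap of the lines. For JUNB the lines nearly met, at 59.05 CPM in CGN-KO replicate 3 and 58.34 CPM in CGNL1-KO replicate 1. The guidance list had 14 higher and 7 lower (52.5%), among them SLIT3 (0.73), EPHA4 (0.61) and SEMA4D (0.56), and 3 without the block. EPAS1, the hypoxia-inducible factor 2 alpha, was at 60.5 to 74.8 CPM in CGN-KO and 34.1 to 38.2 CPM in CGNL1-KO cells (0.87 ± 0.06, limma, adjusted p = 3.39e-10), whereas CA12, a carbonic anhydrase of the same list, was lower (-0.60 ± 0.05). Leaving aside markers of other cell types, the share of a list past the adjusted p ran from 13.2% (cholesterol and fatty acid synthesis) to 57.1% (integrins). It was also near the 15.5% of all genes for the primary cilium (15.4%), glycolysis and hypoxia (17.8%) and other tight junction and polarity genes (18.2%). Again without markers of other cell types, 16 lists had no gene called by limma. They held 442 genes, of which 136 passed the adjusted p at any fold and 191 had an unadjusted p below 0.05. With the replicate block edgeR called 4 of them (EFEMP1, S100A1, S100A16 and SLIT3) and DESeq2 called 2 (S100A1 and SLIT3). KDR, a marker of endothelium, was also called by both, at -1.39 and -1.41.

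**Figure D4:**
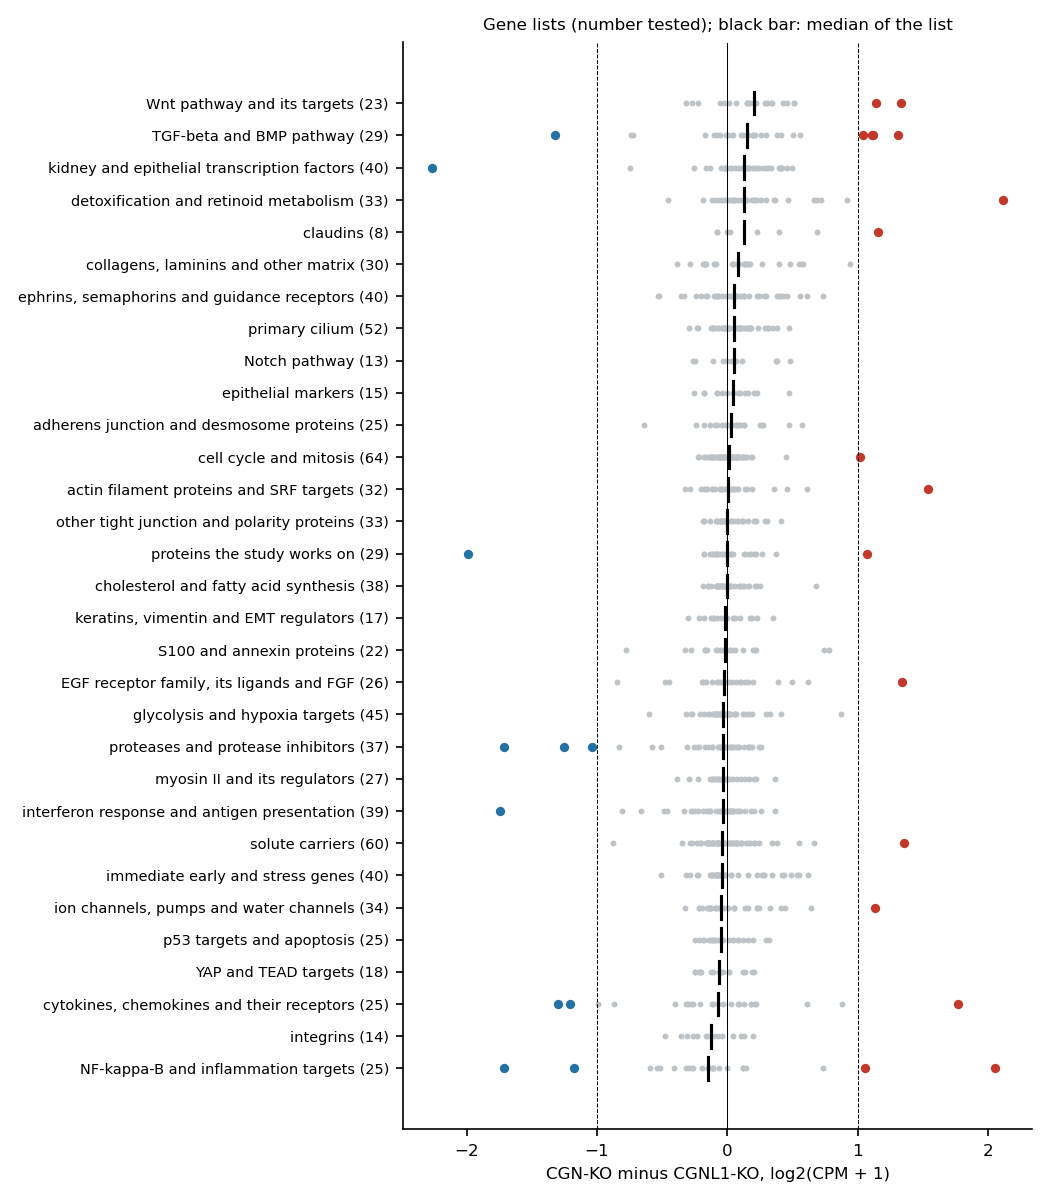
Difference between the lines (CGN-KO minus CGNL1-KO, log2(CPM + 1), horizontal axis) for each tested gene of each list, with the number tested in parentheses. Red and blue points are genes called higher and lower, grey points are not called, and black bars are list medians, which run from -0.15 for NF-kappa-B and inflammation targets to 0.21 for the Wnt pathway.

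Other called genes were chosen for mention after their values were seen. Receptors of the interleukin families went both ways, with IL7R at 2.90 to 3.60 CPM in CGN-KO and 0.581 to 1.17 CPM in CGNL1-KO cells (1.21 ± 0.14), IL31RA at 1.30 to 2.07 CPM and 0.107 to 0.451 CPM (1.04 ± 0.15), and IL13RA2, a decoy receptor for IL-13, lower at 6.91 to 8.77 CPM beside 11.5 to 24.1 CPM (-1.08 ± 0.11, and -0.94 without replicate 1). TNIP3, an inhibitor of NF-kappa-B signals, was at 0.839 to 1.06 CPM and 2.84 to 4.07 CPM (-1.16 ± 0.14). ERAP2, which trims peptides for antigen presentation, was at 2.96 to 3.63 CPM and 6.59 to 9.06 CPM (-1.05 ± 0.11). Of genes near the cytoskeleton, FHOD3, a formin that builds actin filaments, was at 8.94 to 12.8 CPM and 3.58 to 4.12 CPM (1.28 ± 0.11). NEK6, a mitotic kinase, was at 56.6 to 60.1 CPM and 20.5 to 21.8 CPM, with both lines very even (1.42 ± 0.06, limma, adjusted p = 5.45e-15). SAT1, which acetylates polyamines for breakdown, was at 90.4 to 136 CPM and 40.4 to 61.3 CPM (1.08 ± 0.05).

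1 stretch of the genome stood out when the tested genes were put in chromosomal order. Symbols were looked up in RefSeq (assembly UU_Cfam_GSD_1.0) to order 11748 of the genes (92.9%), and this stretch was chosen after its values were seen. 13 neighbours in a row, from IGSF11 to NDUFB4, all passed the adjusted p and were all higher in CGN-KO cells, and the next longest such run held 6 genes. In the 6 libraries without the replicate block all 13 were higher but only 9 passed, with TMEM39A, TIMMDC1, ADPRH and GSK3B missing the adjusted p, and the run was then broken. All 13 passed without the block in 1 fit of 12 libraries. With 1 pair left out 12 or 13 passed. They were IGSF11, UPK1B, B4GALT4, ARHGAP31, TMEM39A, POGLUT1, TIMMDC1, ADPRH, COX17, GSK3B, LRRC58, FSTL1 and NDUFB4, which have no single function in common. They include the bladder membrane protein uroplakin 1B, a GTPase-activating protein, the kinase GSK3B and mitochondrial proteins. Their differences ranged from 0.29 (GSK3B) to 1.14 (FSTL1), with a median of 0.40 that was 0.40, 0.40 and 0.36 in the 3 pairs. UPK1B, the most abundant, was at 820, 734, and 743 CPM in CGN-KO and 603, 555, and 584 CPM in CGNL1-KO cells, and NDUFB4 was at 124, 124, and 122 CPM and 95.5, 100, and 103 CPM. Both sets lay apart without overlap. The 10 neighbours on one side had a median of 0.14 and those on the other of 0.03, and the rest of the chromosome had 0.003. The run ends by rule where a gene misses the adjusted p, so lower values next to it are partly set by that rule. Against WT the median of the run was 0.49 for CGN-KO, 0.04 for CGNL1-KO and 0.55 for double-KO cells, and the double-KO mean was above the CGNL1-KO mean for 13 of the 13 genes. FSTL1 was the only called gene of the run and was at 0.98 without replicate 2.

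**Figure D5:**
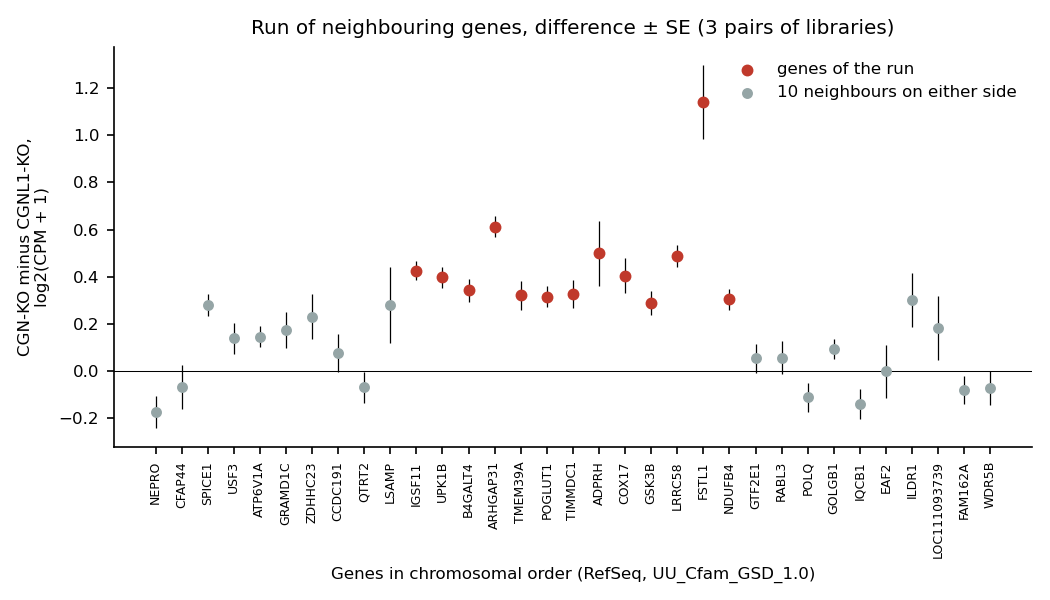
Difference between the lines (CGN-KO minus CGNL1-KO, log2(CPM + 1), vertical axis, with whiskers for the SE over 3 pairs) for the 13 neighbouring genes from IGSF11 to NDUFB4 (red) and 10 placed neighbours on either side (grey), in chromosomal order. The 13 genes sit between 0.29 and 1.14. The run ends by rule where a gene misses the adjusted p, so lower values beside it are partly set by that rule. Of the neighbours, ILDR1 (0.30) and SPICE1 (0.28) were near the lowest genes of the run.

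WT cells were used to see how far each line lay from the unedited cells. The 2 single-KO lines were set against the same WT libraries, so their differences from WT share that reference and are given side by side. Leaving out CGN and CGNL1, the WT mean was nearer to CGN-KO for 21 of 81 called genes (25.9%) and for 39.7% of all genes tested, so for the larger part of the called genes the CGN-KO line was the further from WT. STRA6 differed from WT by 2.12 (log2) in CGN-KO cells and by -0.003 in CGNL1-KO cells, H19 by 1.99 and 0.38, EGF by 1.40 and 0.06, and ID1 by 1.42 and 0.30. TFAP2A (-2.43 and -0.17), PLAU (-1.25 and 0.01), FST (-1.71 and -0.39) and RCN1 (-1.57 and -0.18) were likewise near the WT level in CGNL1-KO cells.

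For other genes the CGNL1-KO line was the further from WT. In the same order, IDO1 differed from WT by 0.57 and 1.98, CCL20 by -0.16 and 1.04, MMP9 by -0.34 and 1.38, and GJB1 by 0.30 and -1.40. A further set lay on the same side of WT in both lines but by different amounts, with ACKR3 at 3.75 and 1.99, CCL17 at 2.41 and 1.10, C3 at 1.89 and 0.84, and TGFBI at 1.80 and 0.76. FBP2 was the only gene called in opposite directions, at 1.45 and -1.36, and its WT level of 3.09 to 5.36 CPM lay between the lines. The genes were grouped in this way after their values were seen, and the grouping is a description.

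The double-KO line lacks both proteins and is a separate clone. Its mean was nearer to CGN-KO for 52 of 81 called genes (64.2%) and for 54.7% of all genes. By direction it was nearer to CGN-KO for 28 of 54 genes called higher and for 24 of 27 genes called lower, and for 18 of the 27 it lay beyond CGN-KO. TFAP2A was at 0.394 CPM in double-KO, 0.674 in CGN-KO and 7.05 CPM in CGNL1-KO cells on average. MMP13 was at 7.29 CPM, below 23.7 in CGN-KO and 51.4 CPM in CGNL1-KO cells, and CXCL8 at 0.702 CPM beside 1.31 and 4.69 CPM. Of the genes called higher, ID1 (83.2 CPM), ID3 (15.6 CPM) and TGFBI (108 CPM) in double-KO cells were close to CGN-KO (96.9, 15.9 and 111 CPM). LCN2 (4.27 CPM) and SELENOP (2.45 CPM) in double-KO cells were nearer to CGNL1-KO cells (2.90 and 1.79 CPM). Both were nearer still to WT cells, at 4.36 CPM for LCN2 and 2.69 CPM for SELENOP. These positions were not tested.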

How the data were processed

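RNASeq of MDCKII cells (dog) was analysed. Per the methods and the submitters' processing notes, RNA was extracted from cells cultured for several days, stranded mRNA libraries were prepared, and reads were aligned with STAR (2.7.0f) to CanFam3.1 and counted with HTSeq (0.9.1). The annotation release and strand setting are not given in the sources used here, so overlapping and antisense genes are uncertain. The authors deposited normalized counts in CPM, treated here as a signal per gene and library because they are scaled by edgeR's TMM factors. Whole reads were recovered from them (100% of values within 0.01 of a whole read). 16 date-form gene names were left as they are, and none was called.

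log2(CPM + 1) was tested with limma 3.58.1 in R 4.3.3 (lmFit, eBayes with trend) in the 6 libraries, with the replicate number as a block. Adjusted p is Benjamini-Hochberg over 12650 genes, and every adjusted p is from limma unless edgeR is named. The pairing by replicate number was set beforehand by the definition of the comparison. The deviations of same-numbered libraries from their group means correlated at r = 0.632, 0.475 and 0.179. CGN-KO replicate 3 correlated better with CGNL1-KO replicate 2 (0.32), and the labels do not say what a replicate number marks. Whether same-numbered libraries form pairs is therefore uncertain. Counts of replicates differed by more than sampling noise (chi-square per degree of freedom 3.32 to 24). Differences from WT are from limma without block in all 12 libraries. Alternatives were other pseudocounts (0.5, 0.1), filters and scaling, edgeR 4.0.16 (quasi-likelihood), DESeq2 1.42.0, fits without block, and pairs left out. Scripts were tested on simulated counts. Plots were drawn with matplotlib 3.10.9.

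Named genes were CGN, CGNL1, the 12 largest differences in each direction without overlap, the 5 most abundant called genes, in each gene list up to 4 called members or, where none was called, up to 3 past the adjusted p, and any tested gene of the proteins the study works on. The comparison and the lists were chosen with earlier results of these data known. Runs of consecutive placed genes past the adjusted p in 1 direction were counted in RefSeq order. Lists were described by counts and medians, without a set test. 1 marker of another cell type is not reported here, and neither is the summed level of that list.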

Additional observations from a re-analysis of the deposited data

Results flagged for a closer look

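The direct test set CGN-KO and CGNL1-KO cells apart for 83 genes. For 17 of them every WT library also lay between the 2 lines, so that the lines stood on opposite sides of WT, and 1 of these, FBP2 (2.81), was called against WT in both lines in opposite directions. For each of the others at most 1 line was called against WT. For NEK6, UCP2, SLCO6A1, SLC27A6, FHOD3, CLCN2, LOC486151 and IL31RA neither line was, since both were less than 2-fold from WT. How many of all tested genes have every WT library between the lines was not counted. By means, and leaving out CGN and CGNL1, WT lay between the lines for 43 of 81 called genes and 3076 of 12648 tested genes. Called genes were picked for a difference of at least 2-fold between the lines. WT falls inside such a gap more easily than between lines that hardly differ, so the 17 and the 43 are partly set by that choice.

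10 of the 17 were higher in CGN-KO cells. Besides FBP2 these were TRPA1 (log2 difference 1.61), NEK6 (1.42), UCP2 (1.37), an uncoupling protein of mitochondria, SLCO6A1 (1.36) and SLC27A6 (1.35), which encode transporters, FHOD3 (1.28), CLCN2 (1.13), LOC486151 (1.05) and IL31RA (1.04). 7 were lower in CGN-KO cells. These were PDE1A (-2.48), CXCL8 (-1.3), LOC490169 (-1.28), CCL20 (-1.2), LOC106559035 (-1.17), ALOX15B (-1.14), a lipoxygenase, and ERAP2 (-1.05). WT levels of CCL20 were 11 to 11.1 CPM, between 9.53 to 10.2 CPM in CGN-KO and 17.5 to 31.3 CPM in CGNL1-KO cells. For TRPA1 they were 30.5 to 32.9 CPM, between 41.2 to 44.1 CPM and 12.2 to 14.3 CPM.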

How the results depend on the processing

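The 83 calls (55 higher, 28 lower) were within 1.5 times of this number in every alternative except 3, with 148 for a pseudocount of 0.1, 169 for edgeR and 129 for DESeq2, each with the replicate block. Genes called higher numbered 106, 121 and 91 in these 3 and 87 with edgeR without block, and genes called lower numbered 48 with edgeR and 17 above 5 CPM. Without the replicate block limma called 80 genes, all among the 83, and in 1 fit of 12 libraries 82. Genes past the adjusted p at any fold (1955) fell to 327 and 656 in these fits, 1208 in a fit of 9 libraries with WT, 311 with edgeR without block and 767 with DESeq2. With 1 pair left out they were 929 to 2162, lowest without replicate 2 (1156 without replicate 3), and calls were 82 to 87, with 56 to 62 higher and 24 to 31 lower. CGN ranged from -2.04 to -1.97 and CGNL1 from 1.05 to 1.12 with 1 pair left out. 63 of the 83 genes were called in every alternative that tested them, and none changed sign. 19 lost the call when 1 pair was left out, among them C3, ID1, ID3, TGFBI, CDKN2B, MMP13 and FSTL1, and GAS6, GPNMB, IL13RA2 and TTC39B of the less abundant genes. CLDN2, MMP13 and LOC102154610 missed the adjusted p in a fit without block, and the other 80 passed it in every alternative. Of 1788 comparisons of 129 named genes with an alternative, 1757 kept their call or lack of one, 13 lost it, 18 gained it (EFEMP1, KDR, S100A1, S100A16 and SLIT3) and 0 reversed. The causes were not tested. With 54 called genes under 10 CPM, the pseudocount understates fold changes, and with 3 libraries a line an exact permutation test of 1 gene cannot go below p = 0.1.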
